A study of Mus musculus with 4 samples.

Results

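The genes described are the enzymes and scaffolds of the cyclic AMP pathway: the adenylyl cyclases, the phosphodiesterases, the subunits of protein kinase A (PKA) and the A-kinase anchoring proteins (AKAPs). They were chosen by gene symbol alone (Adcy, Pde and Akap numbers, Prkaca, Prkacb and the 4 Prkar genes), from the probe sets that the platform annotation assigns to 1 gene. The rule found 56 of the 18193 genes on the arrays, with 145 of 34945 such probe sets. They comprised 10 adenylyl cyclases, 24 genes with a phosphodiesterase symbol, 6 PKA subunits and 16 AKAPs.

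Adenylyl cyclases make cyclic AMP when stimulatory G proteins are active, and phosphodiesterases break it down. Cyclic AMP binds the regulatory subunits of PKA and sets the catalytic subunits free, and AKAPs hold the kinase at particular places in the cell. In fat cells this pathway carries the signal of catecholamines, through which PKA drives the breakdown of stored fat and, in brown fat, heat production, while insulin opposes it in part through the phosphodiesterase Pde3b.

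Expression was measured on 4 Affymetrix 3' arrays, 2 from Lgr4 mutant cells and 2 from wild-type cells. Lgr4 is a receptor for R-spondins, and the mutant mice were homozygous. The labels used here do not describe the mutant allele. Both groups were brown-like adipocytes grown in culture from the stromal vascular fraction of epididymal white fat, the non-adipocyte cells of that depot, of male mice aged 4 months. All cultures received basic fibroblast growth factor (10 ng/ml). Induction lasted 48 h in the presence of dexamethasone (1 µM), isobutylmethylxanthine (0.5 mM), troglitazone (5 µM), insulin (5 µg/ml) and T3 (50 nM), of which the last 3 were kept for 6 further days. Isobutylmethylxanthine inhibits phosphodiesterases, and both genotypes received it during induction. The titles call the arrays biological replicates without saying if each had its own animal or culture, and each p-value below therefore reflects the spread among these arrays only, part of which could be technical.

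Values are log2 signals, so a difference of 1 is a doubling of signal on this scale, and every difference below is Lgr4 mutant minus wild-type, with its standard error (SE). The brightest probe set of each gene was used. A gene was tested if its mean signal passed the 40th percentile of all probe sets (6.13), and it was called where limma's p-value, adjusted by the Benjamini-Hochberg method over all 13173 genes tested, was under 0.05. Correlation between arrays was 0.998 in the mutant pair, 0.995 in the wild-type pair and 0.982 to 0.987 across genotypes. Lgr4 itself had signals of 6.18 and 6.09 in mutant cells against 8.65 and 8.20 in wild-type cells, and its second probe set was below the filter in both.

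The cultures differed in their cell type markers. All 7 measured adipocyte markers were higher in the mutant cells, where their mean signal was 12.94 and 12.88, against 10.38 and 10.44 in wild-type cells. Of the 9 brown adipocyte markers, 6 were tested and 4 were higher. Among the higher ones, Elovl3 and Ucp1 had a wild-type mean below the filter. Ucp1, the uncoupling protein that defines brown fat, had 8.17 and 7.49 in mutant cells and 4.99 and 5.86 in wild-type cells, where its mean lay below the filter, and Cidea was below the filter in both genotypes. Macrophage markers were bright in both genotypes, with mean signals of 11.98 and 11.97 in mutant cells against 12.38 and 12.38 in wild-type cells, and 5 of 9 were lower in the mutant cells. Of 7 pericyte and smooth muscle markers, 5 were lower and 1 was higher, with means of 10.12 and 10.25 in mutant cells against 10.82 and 10.80 in wild-type cells. Among the lower ones, Rgs5 had a mutant mean below the filter. Progenitor markers averaged 8.16 and 8.22 in mutant cells against 8.58 and 8.65 in wild-type cells, and 2 of 6 were lower. Endothelial markers had 1 of 6 higher and 1 lower, and 1 of 2 Schwann and nerve markers was lower. The mutant mean of Vwf, the lower endothelial marker, was below the filter. No tested mesothelial (4) or lymphocyte (3) marker was called. In bulk RNA, more cells of a type and more RNA per cell cannot be told apart, and the part these shifts play in the results below was not tested.

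Of the 56 genes, 41 passed the signal filter. In the mutant cells 5 of them rose and 12 fell, and 24 were not called. The share called was 41.5%, against 29.8% of all genes tested. The share that rose was 12.2%, against 11.1% of all genes, and the share that fell was 29.3%, against 18.7%. The 4 arrays separated by genotype without overlap for 29 of the 41 genes (70.7%), close to the 68.8% of all genes tested. The median difference was -0.07 over the 41 genes and -0.03 over all genes. By class it was 0.12 for the cyclases, -0.10 for the phosphodiesterases, -0.07 for the PKA subunits and -0.22 for the AKAPs. Among all calls 37.1% were upward. When arrays were centred on the median of the tested genes, a setting chosen after seeing the data, that share was 48.5% and the pathway genes split into 7 higher and 9 lower.

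**Figure D1:**
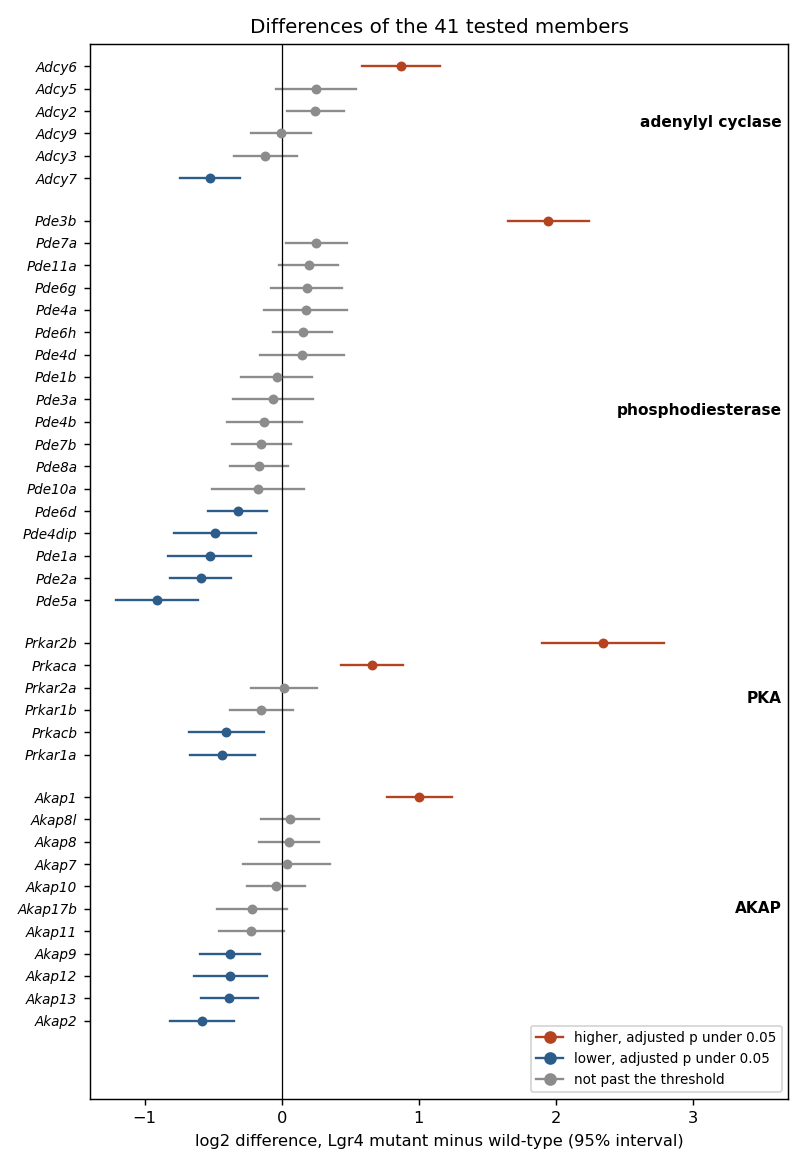
Log2 difference (Lgr4 mutant minus wild-type, x axis) of each of the 41 tested genes, grouped by class, with bars for the 95% interval from limma (not adjusted over genes). Prkar2b (2.35), Pde3b (1.95), Akap1 (1.01), Adcy6 (0.87) and Prkaca (0.66) stand to the right, and the genes that fell lie between -0.91 and -0.32.

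The largest rises exceeded the largest falls in size. Prkar2b ranked 83 and Pde3b 118 from the highest difference among 13173 genes, while Pde5a, the deepest fall of the group, ranked 218 from the lowest. Each of the 5 higher calls was kept under all 13 alternative settings. Of the 12 lower calls, those of Akap2, Pde2a and Pde5a were kept under all 13, and the other 9 were lost under at least 1.

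Of the adenylyl cyclases, 6 of 10 were tested, 1 rose and 1 fell (16.7% each), against 11.1% and 18.7% of all genes tested. Adcy6, one of the cyclases that calcium inhibits, had signals of 10.21 and 10.02 in mutant cells against 9.10 and 9.39 in wild-type cells. Both mutant arrays lay above both wild-type arrays, a 1.83-fold difference (0.87, SE 0.12, adjusted p = 0.00137), measured by 1 probe set. Adcy7, a cyclase enhanced by G beta-gamma and abundant in blood cells, had 10.91 and 11.02 in mutant cells and 11.49 and 11.49 in wild-type cells. It fell by 0.52 (SE 0.094, adjusted p = 0.00447), and a second of its 3 probe sets fell too (-0.60). Without mutant replicate 1 its adjusted p was 0.0708.

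Adcy5, the closest relative of Adcy6, was not called on its brightest probe set, at 8.77 and 9.13 in mutant cells against 8.67 and 8.73 in wild-type cells (0.25, SE 0.13, adjusted p = 0.175). Another Adcy5 probe set had 8.17 and 8.09 in mutant cells against 6.97 and 7.22 in wild-type cells, a difference of 1.03 with an adjusted p of 0.00112 over all probe sets. The mean of all 4 Adcy5 probe sets was also called (0.35, adjusted p = 0.0326). The 2 sets above the filter therefore disagreed in the size of the difference, though both differences were above 0. The other 2 sets, which also enter the mean, were below the filter, with differences of 0.07 and 0.06. Adcy2, which G beta-gamma also stimulates, differed by 0.24 (adjusted p = 0.077). It was called without wild-type replicate 1 (0.26, adjusted p = 0.0402) and with arrays centred on the tested genes (0.30, adjusted p = 0.0434). Adcy3, which calcium stimulates, differed by -0.12 on its brightest probe set, while the dimmest of its 4 sets was called lower (-0.39). Adcy9, the forskolin-insensitive cyclase, differed by -0.01. Adcy1, Adcy4, Adcy8 and the soluble cyclase Adcy10 were below the filter, with differences between -0.05 and 0.20 and no call in the fit on all genes.

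Among the genes with a phosphodiesterase symbol, 18 of 24 were tested. Of these 1 rose (5.56%) and 5 fell (27.8%), against 11.1% and 18.7% of all genes tested. The 5 include Pde6d and Pde4dip, which do not encode catalytic phosphodiesterases, and the direction of Pde4dip is not settled, as given below. Pde3b, the insulin-regulated enzyme of adipocytes that cyclic GMP inhibits, had 12.37 and 12.22 in mutant cells against 10.51 and 10.18 in wild-type cells. The groups were far apart, by 3.86-fold (1.95, SE 0.13, adjusted p = 1.88e-05), on its only probe set. Its relative Pde3a had 6.49 and 6.79 in mutant cells and 6.61 and 6.81 in wild-type cells, with overlapping groups (-0.07, adjusted p = 0.724).

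Of the 7 tested dual-specificity enzymes, which break down both cyclic AMP and cyclic GMP, Pde3b rose (14.3%) and 2 fell (28.6%). Among all genes tested, 11.1% rose and 18.7% fell. Pde2a, which cyclic GMP activates, had 9.94 and 9.97 in mutant cells against 10.47 and 10.62 in wild-type cells, and fell by 0.59 (SE 0.098, adjusted p = 0.003). Its other probe sets differed by -0.51 and -0.08 and were not called. Pde1a, which calcium and calmodulin activate, had 8.66 and 8.45 in mutant cells against 9.25 and 8.92 in wild-type cells, and fell by 0.53 (SE 0.13, adjusted p = 0.0187). The call was lost without mutant replicate 2 (-0.42, adjusted p = 0.126) and with the mean of its probe sets (-0.20, adjusted p = 0.123). The other of the 2 Pde1a probe sets, which enters that mean, was below the filter. Pde1b (-0.04), Pde10a (-0.18) and Pde11a (0.20) were not called, although a dimmer Pde10a probe set was called lower (-0.68). Pde1c was below the filter (-0.04) and not called.

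None of the 6 tested cyclic AMP-specific phosphodiesterases was called, against 29.8% of all genes tested. Pde4a (0.18), Pde4b (-0.13), Pde4d (0.15), Pde7a (0.25), Pde7b (-0.15) and Pde8a (-0.17) had 95% intervals that together ran from -0.40 to 0.48. Of these, Pde4a was called higher without wild-type replicate 2 (0.36, adjusted p = 0.0115). Pde4d was called higher without wild-type replicate 1 (0.33, adjusted p = 0.0285), as was Pde7a (0.30, adjusted p = 0.0323). Pde7a was also called higher with arrays centred on the tested genes (0.31, adjusted p = 0.0474) and when arrays were quantile normalized again (0.31, adjusted p = 0.0425). Pde8b was the exception below the filter: it had 5.52 and 5.39 in mutant cells against 6.63 and 6.07 in wild-type cells, and in the fit on all 18193 genes it fell by 0.89 (SE 0.17, adjusted p = 0.00582). Both of its probe sets were lower. Its mean passed the filter level in wild-type cells only.

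Of the cyclic GMP-specific enzymes only Pde5a, the target of sildenafil and abundant in smooth muscle, was tested. It had 7.34 and 7.32 in mutant cells against 8.43 and 8.05 in wild-type cells, and fell by 0.91 (SE 0.13, adjusted p = 0.00141). Its second probe set above the filter fell by 1.39. The mean of the pericyte and smooth muscle markers fell on the same arrays, as given above, and its part in this value was not tested. Pde6a, Pde6b, Pde6c and Pde9a were below the filter and not called, with differences from 0.02 to 0.16.

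The rule also takes in genes whose products are not catalytic phosphodiesterases. Pde6d, a carrier of prenylated proteins, had 9.45 and 9.38 in mutant cells against 9.70 and 9.77 in wild-type cells, and fell by 0.32 (SE 0.094, adjusted p = 0.0335). The inhibitory subunits Pde6g (0.18) and Pde6h (0.15), best known from photoreceptors, were not called. Pde4dip, or myomegalin, is a centrosome and Golgi scaffold that binds Pde4d. Its brightest probe set had 8.38 and 8.32 in mutant cells against 9.02 and 8.65 in wild-type cells (-0.49, SE 0.13, adjusted p = 0.0242). Another probe set of the gene had 8.35 and 8.37 in mutant cells against 7.21 and 6.86 in wild-type cells, a difference of 1.33. It was the only one of the 39 genes with several probe sets to have sets called in opposite directions, and the mean of its 4 sets was 0.07, so the gene has no settled direction here.

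Without mutant replicate 1 the adjusted p was 0.0648 for Pde4dip and 0.193 for Pde6d, and without mutant replicate 2 it was 0.0952 for Pde4dip and 0.305 for Pde6d. When every probe set was tested it was 0.0528 for Pde4dip and 0.072 for Pde6d. The Pde6d call was also lost with arrays centred on the tested genes (-0.27, adjusted p = 0.0634) and when arrays were quantile normalized again (-0.24, adjusted p = 0.0989).

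**Figure D2:**
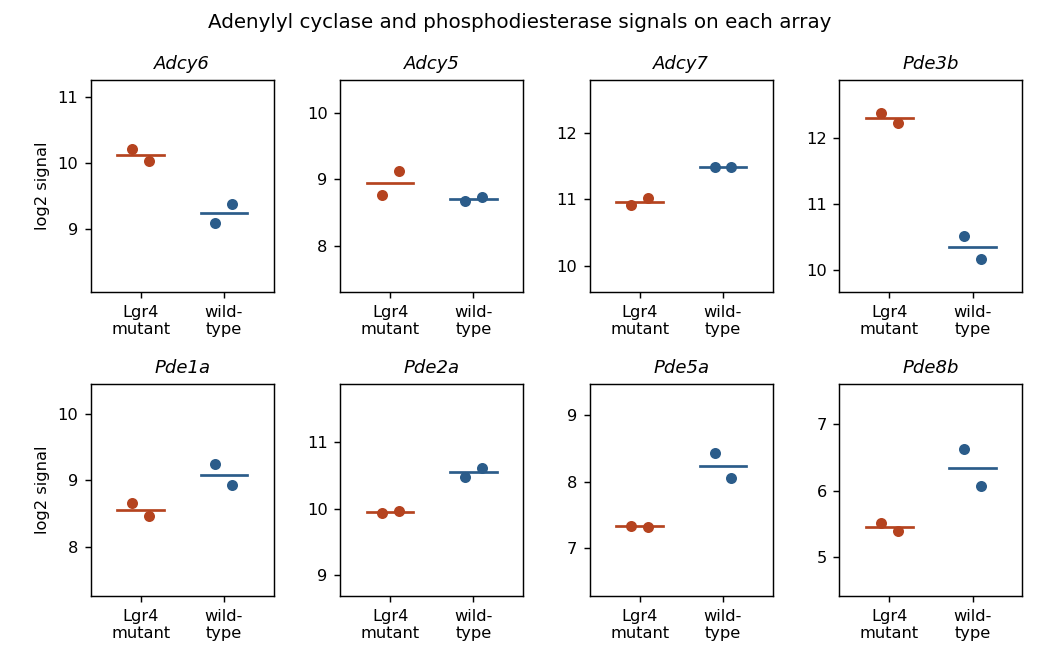
Log2 signal (y axis, each panel spanning the same number of log2 units) on each array for 3 adenylyl cyclases and 5 phosphodiesterases, with a line at each genotype's mean. Adcy6 and Pde3b are higher on both Lgr4 mutant arrays, while Adcy7, Pde1a, Pde2a, Pde5a and the dim Pde8b are lower. The 2 genotypes do not overlap in any of these panels, including that of Adcy5, which was not called. Such separation was seen for 68.8% of all genes tested.

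All 6 PKA subunits were tested, of which 2 rose and 2 fell (33.3% each), against 11.1% and 18.7% of all genes tested. The catalytic subunits differed in direction, and so did the regulatory ones. Prkar2b, the type II beta regulatory subunit that predominates in fat and brain, had 11.41 and 11.31 in mutant cells against 9.35 and 8.67 in wild-type cells. It rose 5.09-fold (2.35, SE 0.19, adjusted p = 6.98e-05), with wild-type arrays further apart than the mutant ones. All 3 of its probe sets rose, by 2.34 to 2.66.

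Prkaca, the main catalytic subunit, had 11.23 and 11.15 in mutant cells against 10.60 and 10.46 in wild-type cells. It rose 1.58-fold (0.66, SE 0.099, adjusted p = 0.00187), and its second probe set rose by 0.96. Prkacb, the other catalytic subunit, had 9.98 and 9.94 in mutant cells against 10.52 and 10.21 in wild-type cells and fell by 0.40 (SE 0.12, adjusted p = 0.0363). A dimmer Prkacb probe set fell by 0.88.

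Prkar1a, the regulatory subunit found in nearly all tissues, had 11.71 and 11.81 in mutant cells against 12.27 and 12.10 in wild-type cells, and fell by 0.43 (SE 0.10, adjusted p = 0.0154). Prkar2a had 10.18 and 10.18 in mutant cells and 10.27 and 10.06 in wild-type cells, so its groups overlapped (0.02, 95% interval -0.22 to 0.26). A dimmer Prkar2a probe set had 9.44 and 9.44 in mutant cells against 9.06 and 9.17 in wild-type cells (0.33). That set was not called over all probe sets (adjusted p = 0.0722). Prkar1b was not called on its brightest probe set (-0.15, adjusted p = 0.292), and 3 of its other sets differed by less than that. The remaining set had 7.11 and 7.12 in mutant cells against 8.29 and 8.57 in wild-type cells (-1.32), and the mean of all its sets was called lower (-0.34, adjusted p = 0.0246).

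The falls of Prkacb and Prkar1a were lost in several settings. Without mutant replicate 1 the adjusted p was 0.128 for Prkacb and 0.162 for Prkar1a, and without mutant replicate 2 it was 0.169 and 0.0619 for the same genes. Prkacb was also lost without wild-type replicate 1 (-0.25, adjusted p = 0.054), when arrays were quantile normalized again (-0.32, adjusted p = 0.0769), with arrays centred on the tested genes (-0.35, adjusted p = 0.0669) and when every probe set was tested (adjusted p = 0.075), and Prkar1a with the mean of its probe sets (-0.25, adjusted p = 0.0551).

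**Figure D3:**
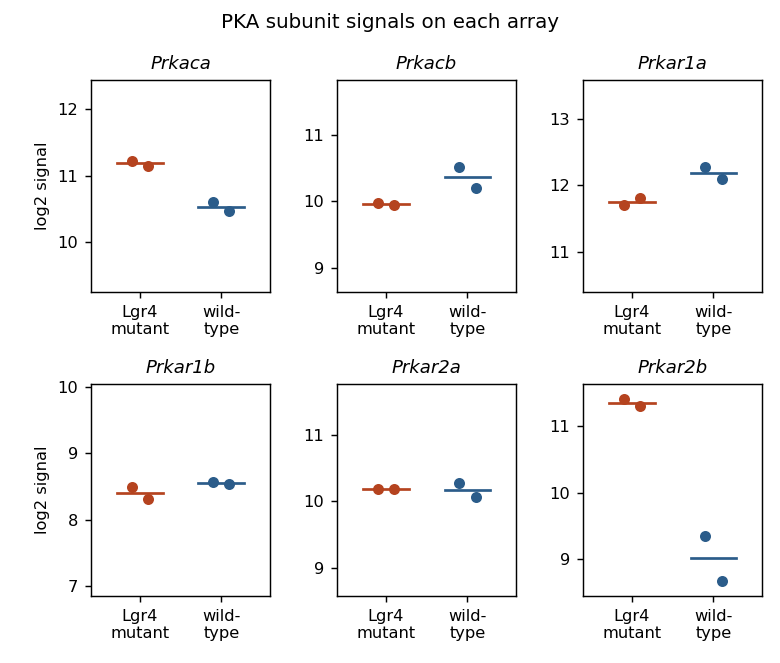
Log2 signal (y axis, each panel spanning the same number of log2 units) of the 6 PKA subunit genes on each array, with a line at each genotype's mean. Prkar2b and Prkaca are higher on both Lgr4 mutant arrays, and Prkacb and Prkar1a are lower. Prkar1b and Prkar2a differ little on the brightest probe sets, which are those shown.

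PKA itself acts on genes through CREB, a factor that binds the cyclic AMP response element (CRE, TGACGTCA, the same on both strands) or its half-site (TGACG, or CGTCA on the other strand). The promoter sequences of the 4 called PKA genes are shown because these subunits moved in both directions. They are from RefSeq (build GRCm38.p6), 250 bases up to the base before an annotated start, read along the gene's strand, with half-sites in capitals. The Prkar1a entry is a stretch of 28 bases around its full CRE, with only the CRE in capitals.
Prkar2b, chr12:32061278-32061527, minus strand: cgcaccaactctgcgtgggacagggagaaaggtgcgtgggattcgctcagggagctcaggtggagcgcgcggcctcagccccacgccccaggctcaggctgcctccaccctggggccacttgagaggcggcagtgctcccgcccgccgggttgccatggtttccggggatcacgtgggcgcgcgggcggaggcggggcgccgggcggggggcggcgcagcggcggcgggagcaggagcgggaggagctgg
Prkaca, chr8:83972728-83972977, plus strand: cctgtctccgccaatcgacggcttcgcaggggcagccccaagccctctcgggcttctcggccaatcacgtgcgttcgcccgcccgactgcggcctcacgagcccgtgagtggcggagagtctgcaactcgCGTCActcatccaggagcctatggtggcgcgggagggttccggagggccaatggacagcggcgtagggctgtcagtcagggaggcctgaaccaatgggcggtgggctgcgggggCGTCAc
Prkacb, chr3:146812947-146813196, minus strand: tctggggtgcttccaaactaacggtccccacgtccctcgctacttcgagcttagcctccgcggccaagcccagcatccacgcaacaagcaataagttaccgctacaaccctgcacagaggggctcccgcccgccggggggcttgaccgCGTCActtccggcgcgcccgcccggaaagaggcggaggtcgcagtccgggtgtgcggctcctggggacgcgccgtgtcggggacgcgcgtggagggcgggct
Prkar1a, chr11:109650890-109650917, plus strand: cgaggcgcatTGACGTCAgcagccgaac

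Each window shown is the most upstream one of its gene, apart from the Prkar1a stretch. Neither of the 2 Prkar2b windows held a half-site. The Prkaca window shown held half-sites that began 120 and 6 bases before the start, and the other of its 2 windows held none. The Prkacb window shown held 1, beginning 102 bases before the start, and the rest of its 3 windows held none. Of the 6 Prkar1a windows, some of which overlap, 3 held a half-site. The CRE of Prkar1a began 49 bases before one of its starts and was the only full CRE found for any of the genes. Promoter entries matched 45 of the 56 genes, with 88 windows. A full CRE was in 1 of the 88 (1.14%), against 1.55% of all 32851 windows. A half-site, which every full CRE also contains, was in 14 of the 88 (15.9%), against 17.8% of all windows. Among tested genes with a window, 1 of 3 that rose, 4 of 10 that fell and 7 of 21 that were not called had a half-site. A gene was counted if any of its windows held a half-site, so these counts cannot be set against the shares of windows. The share of all genes counted in this way was not computed. The letters describe the windows only and show no binding. Of the called genes, Adcy6, Pde3b, Akap2 and Akap12 had no entry.

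Of the anchoring proteins, 11 of 16 were tested, 1 rose (9.09%) and 4 fell (36.4%), against 11.1% and 18.7% of all genes tested. Akap1, which holds PKA at the outer mitochondrial membrane, had 9.70 and 9.63 in mutant cells against 8.56 and 8.76 in wild-type cells. It rose 2.01-fold (1.01, SE 0.10, adjusted p = 2.55e-04), and its second probe set rose by 0.90.

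Akap2 had 10.72 and 10.77 in mutant cells against 11.42 and 11.23 in wild-type cells and fell by 0.58 (SE 0.10, adjusted p = 0.00409), with a second probe set that fell by 0.52. RefSeq now gives Akap2 as a synonym of Pakap, and the gene number of the platform annotation had no match there. Akap13 had 10.27 and 10.24 in mutant cells against 10.64 and 10.64 in wild-type cells and fell by 0.38 (SE 0.091, adjusted p = 0.0154). Of its 7 probe sets 3 were above the filter. The dimmer ones among these differed by -0.60 and -0.03 and were not called over all probe sets. Akap9, a scaffold of the centrosome and Golgi, had 8.93 and 9.03 in mutant cells against 9.40 and 9.31 in wild-type cells and fell by 0.38 (SE 0.096, adjusted p = 0.0203). Of its 6 probe sets 4 were above the filter. The dimmer ones among these differed by -0.43, -0.03 and -0.52 and were not called over all probe sets. Akap12, or gravin, a scaffold under the plasma membrane, had 10.81 and 10.91 in mutant cells against 11.37 and 11.10 in wild-type cells and fell by 0.38 (SE 0.12, adjusted p = 0.0409). In each of these 4 genes both mutant arrays lay below both wild-type arrays. The arrays also separated by genotype, in either direction, for 68.8% of all genes tested.

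The falls of Akap13, Akap9 and Akap12 were lost in several settings. Without mutant replicate 1 the adjusted p was 0.135 for Akap13, 0.239 for Akap9 and 0.26 for Akap12, and without mutant replicate 2 it was 0.172, 0.104 and 0.114 for the same genes. Akap12 was also lost without wild-type replicate 1 (-0.24, adjusted p = 0.0698), without the signal filter (adjusted p = 0.0524), when arrays were quantile normalized again (adjusted p = 0.05001), with arrays centred on the tested genes (-0.32, adjusted p = 0.0785) and when every probe set was tested (adjusted p = 0.0837). Akap9 was lost when arrays were quantile normalized again (-0.30, adjusted p = 0.0513), and with the mean of probe sets so were Akap9 (-0.26, adjusted p = 0.125) and Akap13 (-0.22, adjusted p = 0.0885).

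The dual-specificity anchor Akap10 (-0.04), Akap7 (0.04), the nuclear Akap8 (0.05) and its relative Akap8l (0.06) were not called, nor were Akap11 (-0.22) and Akap17b (-0.22). Without wild-type replicate 2, Akap11 (-0.29, adjusted p = 0.0301) and Akap17b (-0.31, adjusted p = 0.0339) were called lower. Akap4, Akap5, Akap6 and Akap14 were below the filter and not called, with differences from 0.03 to 0.15. Akap3, best known from sperm, was also below it, with 5.25 and 5.06 in mutant cells against 4.79 and 4.82 in wild-type cells. In the fit on all genes it was called higher (0.35, adjusted p = 0.0457), but over all probe sets its adjusted p was 0.0726.

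**Figure D4:**
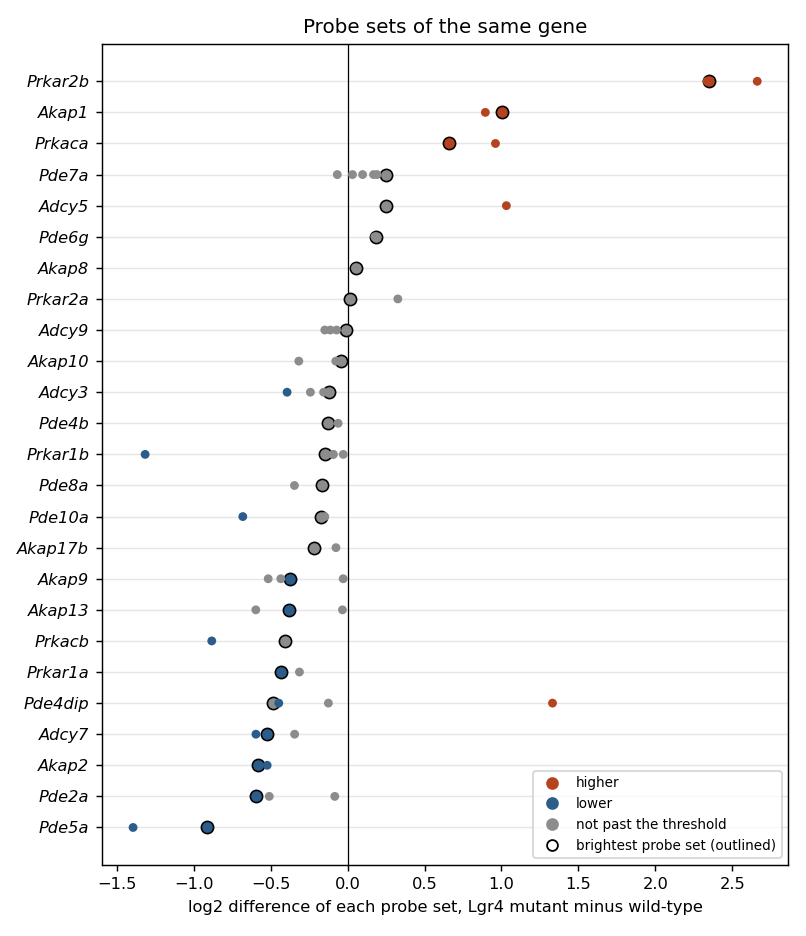
Log2 difference (Lgr4 mutant minus wild-type, x axis) of each probe set above the filter for all 25 genes with several such sets, coloured by the call adjusted over every probe set on the array, with the brightest set outlined. The sets of Prkar2b, Prkaca and Akap1 all lie to the right, those of Pde4dip fall on both sides of 0, and single sets of Adcy5 (1.03) and Prkar1b (-1.32) stand far from the brightest set of the same gene.

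Genes around these enzymes were taken from lists. Of 7 tested G protein genes of the cyclases, 2 rose and 2 fell, with a median difference of 0.05. Among all genes tested, 11.1% rose and 18.7% fell. Gnai1, an inhibitory alpha subunit, had 12.11 and 12.04 in mutant cells against 10.86 and 10.57 in wild-type cells and rose by 1.36 (SE 0.12, adjusted p = 8.97e-05). Gnai3, its close relative, had 11.01 and 10.95 in mutant cells against 11.63 and 11.41 in wild-type cells (-0.54, adjusted p = 0.00704). The chaperones of alpha subunits were called too, Ric8b at 0.44 (adjusted p = 0.0122) and Ric8a at -0.45 (adjusted p = 0.0139). Gnas, the stimulatory subunit, was not called (0.18, adjusted p = 0.209).

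Of 4 genes for PKA inhibitors and the related kinase Prkx, 2 fell and none rose (median -0.28). Among all genes tested, 18.7% fell and 11.1% rose. Pkib, a PKA inhibitor peptide, had 6.78 and 6.62 in mutant cells against 7.52 and 7.71 in wild-type cells (-0.92, SE 0.11, adjusted p = 5.46e-04). Prkx differed by -0.34 (adjusted p = 0.0273). Of 12 tested PKA anchoring proteins with other names, 5 fell and none rose (median -0.08), against 18.7% and 11.1% of all genes tested. Sphkap, an anchor selective for the type I kinase, had 7.36 and 7.16 in mutant cells against 8.74 and 8.25 in wild-type cells (-1.23, SE 0.16, adjusted p = 8.81e-04). Nbea (-0.59), Rab32 (-0.58), Acbd3 (-0.49) and Cmya5 (-0.49) were the other 4, with adjusted p from 0.00297 to 0.0117. Myrip was below the filter in both genotypes, with 4.79 and 4.73 in mutant cells against 4.42 and 4.38 in wild-type cells, and was called higher in the fit on all genes (0.36, adjusted p = 0.029).

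The median difference was 0.10 for other cyclic AMP effectors, -0.12 for the CREB family and -0.21 for early genes, and no test set these lists apart from all genes, of which 11.1% were higher and 18.7% lower. Of 6 tested genes listed as other cyclic AMP effectors, only the channel gene Hcn3 was called (0.42, adjusted p = 0.0199), with a wild-type mean below the filter. Whether cyclic AMP acts on each listed product was not tested. Of 11 CREB family and coactivator genes only the coactivator Crtc3 was called (-0.51, adjusted p = 0.00629). Of 11 early genes that cyclic AMP induces, Fos (-0.45, adjusted p = 0.00809) and Sik1 (-0.42, adjusted p = 0.0144) fell and none rose. Pde12, a nuclease of mitochondria despite its symbol, fell by 0.36 (adjusted p = 0.0313). The PKA substrates and partners of fat breakdown held the largest differences of these lists: of 5 tested, the lipases Lipe (3.53) and Pnpla2 (3.35) and the lipase activator Abhd5 (2.57) rose, with adjusted p from 7.86e-07 to 1.35e-06, and the coactivator Crtc2 (0.23) and the transcription factor Creb1 (-0.37) were not called. Lipe is also among the adipocyte markers given above.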

How the data were processed

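The data were 4 arrays, 2 of Lgr4 mutant and 2 of wild-type cells, grouped by their titles. The values deposited by the authors were log2 signals per probe set, made with Partek 6.6 and RMA per the submitters' processing notes. RMA subtracts background and makes the arrays' distributions alike, which hides differences in total RNA and compresses dim signals. Their range (2.86 to 15.15) shows the log scale, and no source used here names the RMA variant. Of 45101 probe sets, 64 controls and those naming several genes or none were left out. Names came from the platform annotation, and current symbols from RefSeq.

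The comparison between genotypes used R 4.3.3 and limma 3.58.1 (lmFit, eBayes without trend, 2-sided, Benjamini-Hochberg over all genes tested). There were 2 residual and 6.21 prior degrees of freedom, and the precision is limited by how few arrays there are. The fit was tested on simulated data. Members, gene lists and tests were chosen with earlier results of these data known. Every member is accounted for: called members are named with each array's value, other tested members with their difference, and members below the filter from the same fit on all genes. In the other pathway lists every called gene is named. The alternatives varied the filter, the probe set rule, normalization, the eBayes prior, the replicate number as a block and the arrays included. Genes that no probe set names alone were not analysed here.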

Additional observations from a re-analysis of the deposited data

How the results depend on the processing

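The 17 called genes kept their direction under the 13 alternatives, except Pde4dip, which turned to 0.069 (adjusted p = 0.691) with the mean of all probe sets of a gene, since its probe sets disagree. Over all genes, 3924 calls were made, of which 37.1% were upward. Leaving out 1 array in turn gave 1851 to 6349 calls over all genes, 5 to 8 higher and 4 to 14 lower among the pathway genes. The array left alone in its genotype is then assumed to vary like the other pair. Leaving out a mutant array gave fewer calls than with all 4 arrays, and leaving out a wild-type array gave more. This held over all genes and among the pathway genes alike. Testing every probe set gave 5899 calls among 45037 probe sets, with 5 higher and 9 lower among the pathway genes' brightest sets. The mean of probe sets gave 6 and 8, and so did a second quantile normalization, where 44.1% of all calls were upward. Centring on the median of all probe sets gave 5 and 12 (30.7% of all calls upward), and centring on the tested genes 7 and 9 (48.5%). The other filters and the eBayes trend gave 5 or 6 higher and 12 lower.

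With the replicate number as a block (replicate block), 4879 genes were called, with 5 pathway genes higher and 12 lower, which were the same 17 genes. No source says that the numbers pair the arrays, and the correlation of same-numbered deviations was 0.159, from only 2 pairs. The cause of the calls lost between settings was not tested.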
